A study of Homo sapiens with 16 samples.

Results

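The CDK inhibitor genes CDKN1A, CDKN1C and CDKN2B, the ubiquitin ligase subunit SKP2, the cyclin gene CCNG2 and the ubiquitin ligase gene MDM2 were followed across 16 Affymetrix arrays of AsPC-1 cells, a line from a human pancreatic adenocarcinoma. Probe sets annotated to one of these genes and to no other gene were taken, which gave 15 of the 9554 probe sets and 6 of the 5250 named genes. The genes were chosen by their known roles and with their response to ICG-001 already seen in these arrays, so their values under ICG-001 against DMSO are a description and carry no test. The knockdown arrays and the DMSO arrays compared with each other over time were not what the genes were chosen on, and those comparisons were tested. The DMSO arrays nevertheless serve as the controls of the ICG-001 comparisons.

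In the drug experiment AsPC-1 cells were kept in RPMI medium with serum and received 10 µM ICG-001 for 6 h, the DMSO vehicle for 6 h, ICG-001 for 24 h or DMSO for 24 h, with 3 arrays in each of the 4 groups. In a separate experiment the cells were transfected, using lipofectamine, with 20 nM of an siRNA against CTNNB1, which encodes β-catenin, or with 20 nM of a control siRNA, and RNA was taken at 48 h, with 2 arrays per group. ICG-001 is a small molecule reported to bind the coactivator CBP and to disturb its interaction with β-catenin. All groups are of a single cell line, the labels name neither the siRNA sequences nor how many siRNAs were used, and no untreated or untransfected cells were included.

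Cyclin-dependent kinases drive cells from G1 into S phase, and 2 families of inhibitors hold them back. CDKN1A (p21) and CDKN1C (p57) belong to the CIP/KIP family, which binds cyclin and kinase complexes, whereas CDKN2B (p15) belongs to the INK4 family, which binds CDK4 and CDK6. SKP2 is the F-box protein by which an SCF ubiquitin ligase recognises CIP/KIP inhibitors and marks them for degradation, so its level opposes theirs at the protein level. CCNG2 (cyclin G2) is an unusual cyclin linked to arrest and known as a FOXO target. MDM2 is a ubiquitin ligase that marks proteins for degradation. Arrays read RNA only, so none of the protein-level steps was measured.

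Values are intensities, the brightness of a probe set on a linear scale, as deposited. Changes are on the log2 scale after 16 was added to each intensity and the arrays were quantile normalized, so that 1 unit is a doubling and the ratio of printed intensities can differ from the printed change. Each change has its standard error (SE) from a linear model over all 16 arrays, and a gene was called at an adjusted p under 0.05. Where the median over probe sets is named, its change and adjusted p are the medians of those of the gene's probe sets. It is no test of its own, and a gene passes or loses a call there by that median adjusted p. The median intensity was 20.6 to 28.6 on the 12 drug arrays and 12.7 to 13.05 on the 4 siRNA arrays, so levels set across these experiments depend on the scaling. The mean intensity was 163.7 to 178.9 on the ICG-001 arrays and 131.7 to 136.8 on the DMSO arrays, a difference that moves with treatment and whose part in the changes under ICG-001 was not tested. A gene is called measured here where the table, which holds only probe sets that varied between arrays, has a probe set naming that gene alone. Of 12 listed carcinoma epithelial markers 5 were measured, KRT7, KRT19, MUC1, CDH1 and S100P, with summed intensities of 1427 to 9379. The summed intensity of 3 fibroblast markers was 81 to 165.9 and that of 2 endothelial markers 5.41 to 30.65. PTPRC, the leukocyte marker measured, was at 4.07 to 31.74. No acinar or islet marker was analysed here. No CTNNB1 probe set was analysed here, which leaves the level of the knocked-down gene unchecked, and the p27 gene CDKN1B was not analysed here.

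The promoters of the 4 genes with the clearest differences between drug and vehicle and 1 sequence window each are printed so that their base composition and motifs can be set beside their values. They are RefSeq sequences of GRCh38.p14, from 250 bases before to 50 bases after the annotated start, read 5′ to 3′ on the strand of the gene. Capitals mark the GC box, GGGCGG on either strand, and the E-box CACGTG. A window was found for 5 of the 6 genes, not for CDKN1C. MDM2 had 4 overlapping or neighbouring windows and is not shown. CDKN1A lay at chr6:36678464-36678763 on the plus strand, CDKN2B at chr9:22009256-22009555 on the minus strand, SKP2 at chr5:36151861-36152160 on the plus strand and CCNG2 at chr4:77156957-77157256 on the plus strand.
CDKN1A: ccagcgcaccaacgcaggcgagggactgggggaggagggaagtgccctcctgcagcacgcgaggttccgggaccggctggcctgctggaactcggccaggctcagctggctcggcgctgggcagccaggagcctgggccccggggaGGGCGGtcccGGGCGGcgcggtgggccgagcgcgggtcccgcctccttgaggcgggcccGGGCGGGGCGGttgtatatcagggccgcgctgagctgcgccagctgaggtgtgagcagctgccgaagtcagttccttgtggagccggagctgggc
CDKN2B: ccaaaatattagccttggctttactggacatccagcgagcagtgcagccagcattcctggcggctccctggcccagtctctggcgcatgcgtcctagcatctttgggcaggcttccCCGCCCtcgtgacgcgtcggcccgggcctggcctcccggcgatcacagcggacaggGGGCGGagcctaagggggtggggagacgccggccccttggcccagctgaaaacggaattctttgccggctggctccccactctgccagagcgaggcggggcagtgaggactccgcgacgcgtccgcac
SKP2: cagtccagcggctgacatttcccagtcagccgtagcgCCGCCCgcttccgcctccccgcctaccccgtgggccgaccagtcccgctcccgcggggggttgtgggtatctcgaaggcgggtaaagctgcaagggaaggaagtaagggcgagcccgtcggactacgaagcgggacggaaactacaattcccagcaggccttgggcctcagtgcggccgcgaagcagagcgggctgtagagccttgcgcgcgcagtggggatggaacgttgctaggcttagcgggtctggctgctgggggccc
CCNG2: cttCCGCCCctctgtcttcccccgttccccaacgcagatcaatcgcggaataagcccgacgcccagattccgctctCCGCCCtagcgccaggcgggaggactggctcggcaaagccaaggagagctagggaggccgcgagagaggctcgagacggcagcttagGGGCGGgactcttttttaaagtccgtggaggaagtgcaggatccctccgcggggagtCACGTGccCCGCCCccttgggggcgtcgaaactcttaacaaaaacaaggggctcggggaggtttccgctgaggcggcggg
The G and C content of the windows was 74.33% for CDKN1A, 67.33% for CDKN2B, 67.33% for SKP2 and 64.67% for CCNG2. The GC box, bound by the Sp1 family, matched 4 times in CDKN1A, where the 2 matches nearest the start share a base. It matched 4 times in CCNG2, 2 times in CDKN2B and 1 time in SKP2. It was present in 45% of the 35116 windows of all genes, so its presence does not set these promoters apart. The E-box matched 1 time, in CCNG2, and was present in 7.26% of all windows. On either strand no match was found in the 4 windows for TTTCCCGC or TTTGGCGC, forms of the E2F site present in 2.27% of all windows, for CCAAT, present in 34.6%, or for TATAAA, present in 11.5%. The genes with the higher and the lower levels under ICG-001 shared the GC box.

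CDKN1A was higher with ICG-001 at both times. Its intensities at 6 h were 4702, 4473 and 4424 with ICG-001, against 1605, 1718 and 1762 with DMSO. At 24 h they were 2567, 2833 and 2575 with ICG-001, against 1098, 1106 and 1219 with DMSO. The groups did not overlap at either time, and both the drug and the vehicle arrays were dimmer at 24 h than at 6 h. The log2 change under ICG-001 was 0.86 ± 0.083 (SE, n = 3 each) at 6 h and 0.74 ± 0.083 at 24 h. Without quantile normalization these changes were larger, at 1.41 and 1.21.

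CDKN2B was higher with ICG-001 as well, and its highest level was reached at 24 h. The brighter of its probe sets, 236313_at, had intensities of 1053, 994 and 1004 with ICG-001 at 6 h, against 416, 441 and 453 with DMSO. At 24 h it had 1782, 1792 and 1778 with ICG-001, against 807, 721 and 757 with DMSO. The ICG-001 arrays lay far above the DMSO arrays at both times, and the 24 h DMSO arrays lay above the 6 h ones. The log2 change was 0.93 ± 0.097 at 6 h and 0.83 ± 0.097 at 24 h. The other probe set, 207530_s_at, was dim, with 24.5, 18.1 and 27.4 in the ICG-001 arrays at 6 h, against 21.1, 22.6 and 19.2 in the DMSO arrays. At 24 h it had 36.3, 66.7 and 31.4 with ICG-001, against 23.7, 25.4 and 21.9 with DMSO. Its arrays overlapped at 6 h and not at 24 h, and its changes were 0.06 and 0.42.

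CDKN1C was higher with ICG-001 at both times, with a larger difference at 24 h. Its intensities at 6 h were 279.8, 247 and 228 with ICG-001, against 164, 189 and 182 with DMSO. At 24 h they were 338, 329 and 304 with ICG-001, against 184, 150.5 and 139 with DMSO. No array with ICG-001 overlapped one with DMSO. The log2 change was 0.41 ± 0.11 at 6 h and 0.88 ± 0.11 at 24 h, a difference of 0.47 ± 0.15 between the times. CDKN1C was measured by 1 probe set, 216894_x_at, whose suffix marks probes that may also match related sequences. The same suffix is carried by the brightest probe sets of SKP2 and MDM2.

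SKP2 had the largest difference from vehicle of the 6 genes, and it was lower with ICG-001 at both times. Its brightest probe set, 203625_x_at, had intensities of 984, 944 and 939 with ICG-001 at 6 h, against 2498, 2545 and 2617 with DMSO. At 24 h it had 948, 1003 and 926 with ICG-001, against 2607, 2639 and 2793 with DMSO. The arrays with ICG-001 lay between 926 and 1003 at either time, below the vehicle arrays. The log2 change was -1.77 ± 0.053 at 6 h, the second lowest of 5250 genes, and -1.86 ± 0.053 at 24 h, the 24th lowest. In fold terms these are levels 3.41 and 3.62 times lower after quantile normalization. The difference was smaller in the deposited mean intensities, at 956 with ICG-001 against 2553 with DMSO at 6 h. At 24 h these means were 959 with ICG-001 against 2680 with DMSO. The normalized change at 24 h minus that at 6 h was -0.08 ± 0.075.

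The other SKP2 probe sets showed the same direction. 210567_s_at had 100.3, 93.5 and 84.3 with ICG-001 at 6 h, against 327, 339 and 319 with DMSO. At 24 h it had 51.7, 64.6 and 61.5 with ICG-001, against 249, 264 and 284 with DMSO. Its changes were -1.88 and -2.12. 203626_s_at was dimmer, at 32.0, 32.6 and 38.6 with ICG-001 at 6 h, against 73.5, 83.7 and 63.5 with DMSO, and 22.4, 31.9 and 23.9 with ICG-001 at 24 h, against 64.5, 81.2 and 82.7 with DMSO. Its changes of -0.80 and -1.14 were smaller, on intensities where the 16 added before log2 damps a difference. In all 3 probe sets the ICG-001 arrays lay below every DMSO array of the same time.

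CCNG2 had the highest log2 change among the 6 genes at 6 h and a small one at 24 h. Its probe set 202769_at had intensities of 2393, 2248 and 2256 with ICG-001 at 6 h, against 607, 635 and 620.1 with DMSO. At 24 h it had 1809, 1803 and 1888 with ICG-001, against 1229, 1169 and 1058 with DMSO. Between the times the vehicle level was higher at 24 h and the ICG-001 level lower. The log2 change was 1.48 ± 0.085 at 6 h, the 27th highest of 5250 genes, and 0.22 ± 0.085 at 24 h. The change at 24 h minus that at 6 h was -1.26 ± 0.12. At 24 h the size depended on the scaling, with 0.67 on the deposited scale and 0.54 after centring on array medians.

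All 4 CCNG2 probe sets were higher with ICG-001 at 6 h. 202770_s_at had 1202, 1165 and 1209 with ICG-001, against 383, 377 and 352 with DMSO, a change of 1.41. 211559_s_at had 329, 348 and 354 with ICG-001, against 93.7, 95.9 and 93.8 with DMSO, a change of 1.75. 228081_at had 84.3, 90.3 and 99.8 with ICG-001, against 55.7, 47.4 and 52.2 with DMSO, a change of 0.60. At 24 h the changes of these 3 probe sets were 0.35, 0.29 and -0.02, so each was smaller than at 6 h. For 228081_at the arrays overlapped at 24 h, with 115.7, 120.9 and 106.2 under ICG-001, against 96.5, 106.2 and 118.3 under DMSO.

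MDM2 differed little between drug and vehicle. Its brightest probe set, 225160_x_at, had intensities of 329, 378 and 366 with ICG-001 at 6 h, against 360.2, 324 and 332 with DMSO, and the arrays overlapped. At 24 h it had 293, 297 and 300.03 with ICG-001, against 300.46, 314 and 312 with DMSO. The highest ICG-001 array and the lowest DMSO array at 24 h were almost level. The log2 change was -0.04 ± 0.084 at 6 h (95% confidence interval -0.22 to 0.14) and -0.23 ± 0.084 at 24 h. On the deposited scale these changes were 0.07 and -0.06, so the sign at 6 h and the size at 24 h depended on the scaling.

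The other MDM2 probe sets were dim. 238733_at had 51.3, 66.7 and 66.1 with ICG-001 at 24 h, against 31.1, 32.4 and 52.3 with DMSO, and the groups overlapped. 211832_s_at had 17.9, 14.8 and 23.2 with ICG-001 at 24 h, against 30.45, 23.9 and 30.9 with DMSO. Their changes at 24 h were 0.36 and -0.43, of opposite sign. 237891_at was under 16 on all 16 arrays and gave changes of -0.02 at 6 h and -0.01 at 24 h.

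**Figure D1:**
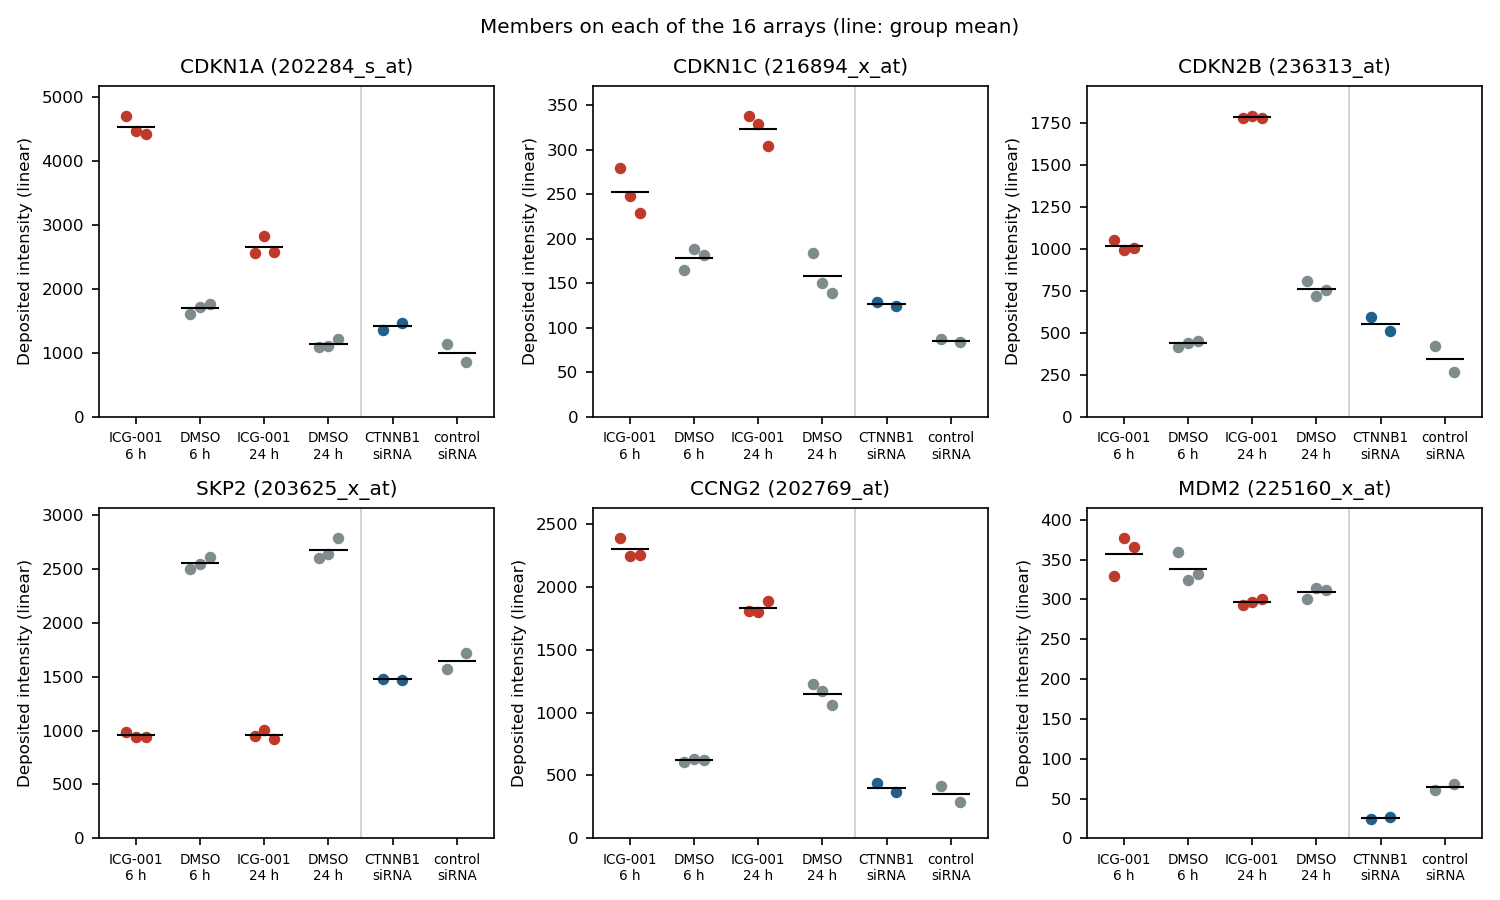
Deposited intensity (linear axis from 0) of the brightest probe set of each gene on each of the 16 arrays, with ICG-001 in red, CTNNB1 siRNA in blue and DMSO or control siRNA in grey, and a line at each group mean. SKP2 lay between 926 and 1003 on the ICG-001 arrays and between 2498 and 2793 on the DMSO arrays, and MDM2 lay between 23.7 and 68.6 on the siRNA arrays.

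Over the 6 genes at 6 h, 4 were higher with ICG-001 and 1 lower without overlap of the arrays, which held in that direction for 11.6% and 15.9% of all 5250 genes. At 24 h, 4 were higher and 2 lower without overlap, against 14.4% and 18.5% of all genes. Since the genes were chosen by this response, nothing is read from these counts. The median log2 change of the 6 genes was 0.64 at 6 h and 0.48 at 24 h, beside -0.02 over all genes at either time. The ICG-001 arrays compared with each other over time, 24 h over 6 h, gave -0.78 ± 0.083 for CDKN1A, -0.37 ± 0.085 for CCNG2 and -0.36 ± 0.084 for MDM2. The same contrast gave 0.68 ± 0.097 for CDKN2B, 0.25 ± 0.11 for CDKN1C and -0.02 ± 0.053 for SKP2. These are the brightest probe sets, and others differed. For SKP2, 210567_s_at had -0.60 ± 0.10 and 203626_s_at -0.35 ± 0.13. For MDM2, 238733_at had 0.72 ± 0.19, 211832_s_at -0.14 ± 0.19 and 237891_at 0.04 ± 0.17. For CCNG2, 228081_at had 0.21 ± 0.12, 202770_s_at -0.29 ± 0.086 and 211559_s_at -0.46 ± 0.12. The dim CDKN2B probe set had 0.44 ± 0.18. On the ICG-001 arrays CDKN1A was therefore lower and CDKN2B higher at the later time. The DMSO arrays moved the same way, by -0.66 ± 0.083 for CDKN1A and 0.78 ± 0.097 for CDKN2B. The change over DMSO at 24 h minus that at 6 h was -0.12 ± 0.12 for CDKN1A and -0.10 ± 0.14 for CDKN2B. It was 0.47 ± 0.15 for CDKN1C, and these differences were not tested.

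**Figure D2:**
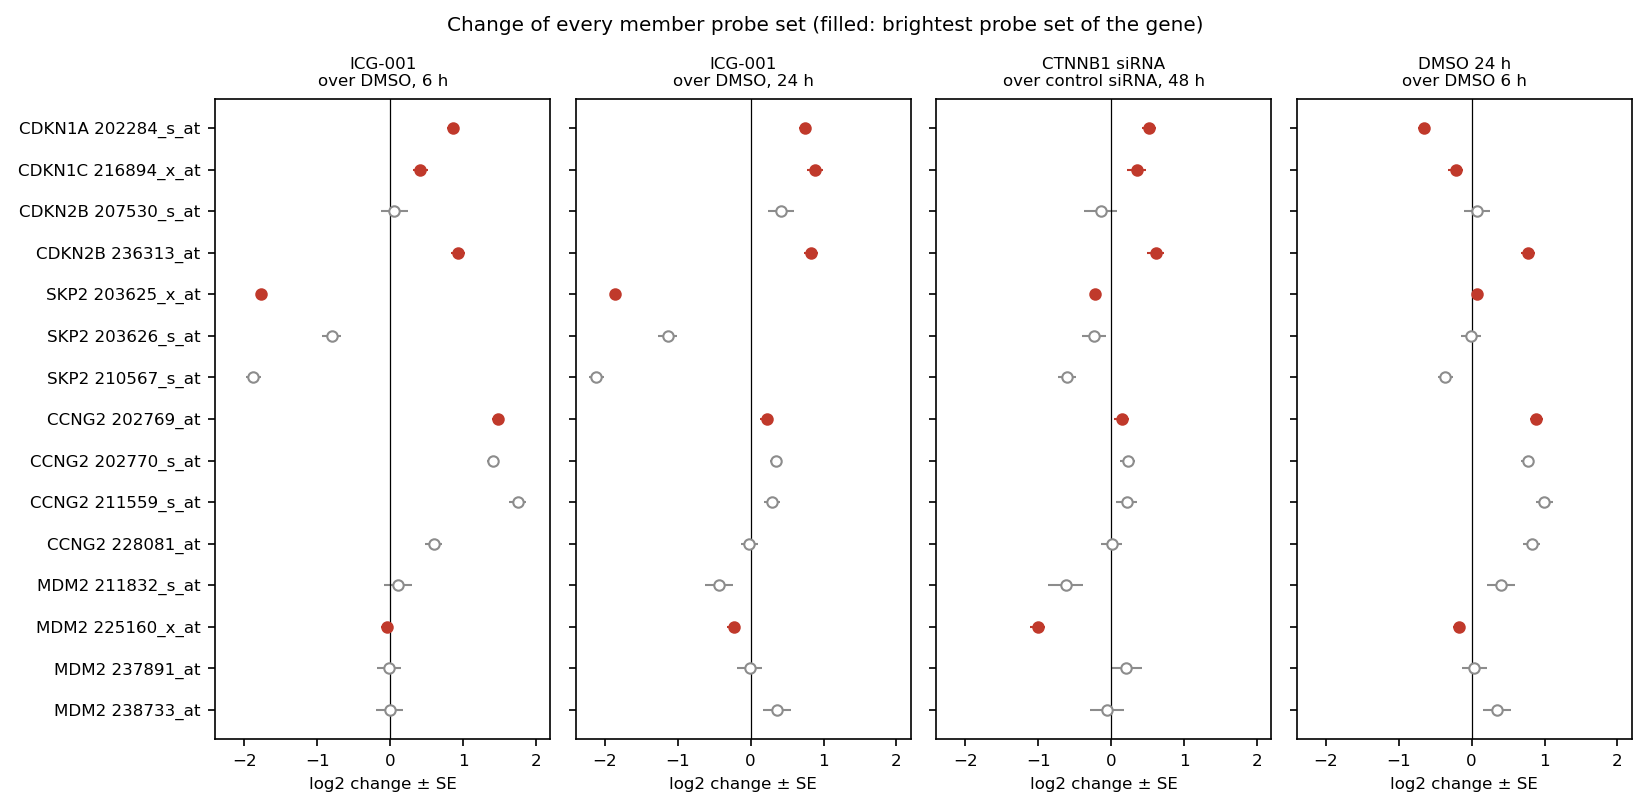
Log2 change with its SE (horizontal axis) of all 15 probe sets (rows) in 4 comparisons, with the brightest probe set of each gene filled. The 3 SKP2 probe sets lie left of 0 under ICG-001 at both times, the 4 CCNG2 probe sets lie right of 0 at 6 h and between -0.02 and 0.35 at 24 h.

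In vehicle alone, the question was whether the genes moved with time in culture. CCNG2 rose, with 1229, 1169 and 1058 in DMSO at 24 h, against 607, 635 and 620.1 in DMSO at 6 h, a log2 change of 0.89 ± 0.085 (adjusted p = 5.70e-07). CDKN2B rose, with 807, 721 and 757 at 24 h, against 416, 441 and 453 at 6 h, by 0.78 ± 0.097 (adjusted p = 1.42e-05). The medians over its probe sets were a change of 0.43 and an adjusted p of 0.470, where the dim probe set had 0.939. CDKN1A fell, with 1098, 1106 and 1219 at 24 h, against 1605, 1718 and 1762 at 6 h, a change of -0.66 ± 0.083 (adjusted p = 1.62e-05). In these 3 genes no 24 h array overlapped a 6 h array. The same held for MDM2, which did not pass the test. The share of all genes without overlap is not given here, so nothing is read from it. By the test 2 of the 6 genes rose and 1 fell, where 4.69% of all genes rose and 3.94% fell.

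The other 3 genes did not pass the test over time in vehicle. SKP2 had a change of 0.07 (95% confidence interval -0.04 to 0.18, adjusted p = 0.695), MDM2 one of -0.17 (-0.35 to 0.01, adjusted p = 0.342) and CDKN1C one of -0.22 (-0.44 to 0.00, adjusted p = 0.317). All 4 CCNG2 probe sets rose, by 0.77 to 1.00 (highest adjusted p = 5.92e-05, for 228081_at). The SKP2 probe set 210567_s_at fell by 0.36 (adjusted p = 0.0281), while 203625_x_at and 203626_s_at had changes of 0.07 and -0.01. The dim CDKN2B probe set had a change of 0.08 (adjusted p = 0.939). The dim MDM2 probe sets had changes of 0.40 (adjusted p = 0.324), 0.35 (adjusted p = 0.418) and 0.04 (adjusted p = 0.973), none of which passed. In all, 5 of the 15 probe sets rose and 2 fell, where 8.40% of all 6442 probe sets with 1 gene were called. The DMSO arrays at 24 h, on which CCNG2 was higher, are also the controls of ICG-001 at 24 h.

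With CTNNB1 siRNA, MDM2 fell, CDKN1A and CDKN2B rose and SKP2 fell by a smaller amount that depended on the processing, so 2 of the 6 genes rose and 2 fell, where 6.19% of all genes rose and 5.83% fell. MDM2 had intensities of 23.7 and 26.6 with CTNNB1 siRNA, against 60.4 and 68.6 with control siRNA. The log2 change was -1.01 ± 0.10 (adjusted p = 1.69e-06, n = 2 each, limma), the 57th lowest of 5250 genes. With 1 in place of 16 added it was -1.25, and with 64 added -0.64, since these intensities are low. The probe set 211832_s_at had 3.48 and 3.69 with CTNNB1 siRNA, against 9.77 and 12.09 with control siRNA, a change of -0.62 that did not pass the test (adjusted p = 0.100). The dim 237891_at and 238733_at had changes of 0.21 (adjusted p = 0.619) and -0.05 (adjusted p = 0.930), and the median over the 4 probe sets gave -0.34 (adjusted p = 0.359). The fall of MDM2 therefore rests on 225160_x_at, whose probes may match related sequences. The coefficient of variation of this probe set, the SD over the mean, was 0.0880 over the 12 drug arrays and 0.503 over all 16. All probe sets analysed had at least 0.400 over the 16 arrays, so this one was analysed only through its low siRNA arrays. Nothing is therefore read from its rank or from its place among the 2 genes that fell.

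CDKN1A had 1357 and 1474 with CTNNB1 siRNA, against 1139 and 857 with control siRNA. Its change was 0.52 ± 0.10 (adjusted p = 0.00181), and it was 0.33 (adjusted p = 0.0345) without control siRNA replicate 2, the lowest array. CDKN2B had 597 and 514 with CTNNB1 siRNA, against 425 and 266 with control siRNA, with a change of 0.61 ± 0.12 (adjusted p = 0.00169). Without control siRNA replicate 2 it was 0.34 (adjusted p = 0.0226), so the size depended on that array for both genes. With the 4 siRNA arrays alone the CDKN2B call was lost (0.64, adjusted p = 0.0598), as it was with the median over its probe sets (0.23, adjusted p = 0.386). Its dim probe set, with 15.3 and 12.25 under CTNNB1 siRNA, against 15.8 and 15.45 under control siRNA, had a change of -0.15 (adjusted p = 0.771).

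CDKN1C had 128.6 and 124.3 with CTNNB1 siRNA, against 86.9 and 84.3 with control siRNA, with no overlap. Its coefficient of variation was 0.309 over the drug arrays and 0.415 over all 16, so it too was analysed only through the siRNA arrays. Its change of 0.35 (95% confidence interval 0.08 to 0.62) did not pass after adjustment (adjusted p = 0.0931), although it did on the deposited scale (0.49, adjusted p = 0.0134) and after centring on array medians (0.49, adjusted p = 0.0291). SKP2 had 1480 and 1473 with CTNNB1 siRNA, against 1577 and 1722 with control siRNA. Its change of -0.22 ± 0.065 passed (adjusted p = 0.0291), but not on the deposited scale (-0.16, adjusted p = 0.192), after median centring (-0.16, adjusted p = 0.353), with the siRNA arrays alone (adjusted p = 0.184), or without CTNNB1 siRNA replicate 1 (adjusted p = 0.136), CTNNB1 siRNA replicate 2 (adjusted p = 0.0724) or control siRNA replicate 2 (-0.13, adjusted p = 0.252). Its probe set 210567_s_at had 99.8 and 105.9 with CTNNB1 siRNA, against 164.4 and 192.7 with control siRNA, a fall of 0.60 on the log2 scale (adjusted p = 0.00256). The third SKP2 probe set, at 71.2 and 71.6 with CTNNB1 siRNA, against 84.55 and 90.3 with control siRNA, had a change of -0.23 (adjusted p = 0.440). All 3 SKP2 probe sets were thus lower on both CTNNB1 siRNA arrays, by amounts that differed between probe sets. They were read on the same arrays and do not replicate each other.

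CCNG2 had 441 and 367 with CTNNB1 siRNA, against 415 and 287 with control siRNA, and the arrays overlapped. Its change was 0.15 (95% confidence interval -0.07 to 0.37, adjusted p = 0.450), and without control siRNA replicate 1 it passed the test at 0.35 (adjusted p = 0.0218). The other 3 CCNG2 probe sets had changes of 0.23 (adjusted p = 0.199), 0.21 (adjusted p = 0.408) and 0.01 (adjusted p = 0.986). Over all 15 probe sets, 2 rose and 3 fell, where 11.7% of all 6442 probe sets with 1 gene were called. Set side by side, SKP2 had -1.77 and -1.86 under ICG-001 at 6 h and 24 h and -0.22 under CTNNB1 siRNA, whereas MDM2 had -0.04 and -0.23 under ICG-001 and -1.01 under CTNNB1 siRNA. The MDM2 probe set was analysed only through the siRNA arrays, so nothing is read from its side of this comparison. The treatments also differed in time, dose and delivery, and the difference between them was not tested. The RNA came from whole cultures, in which a change in every cell and a change in the share of cells in a cell-cycle phase cannot be told apart.

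**Figure D3:**
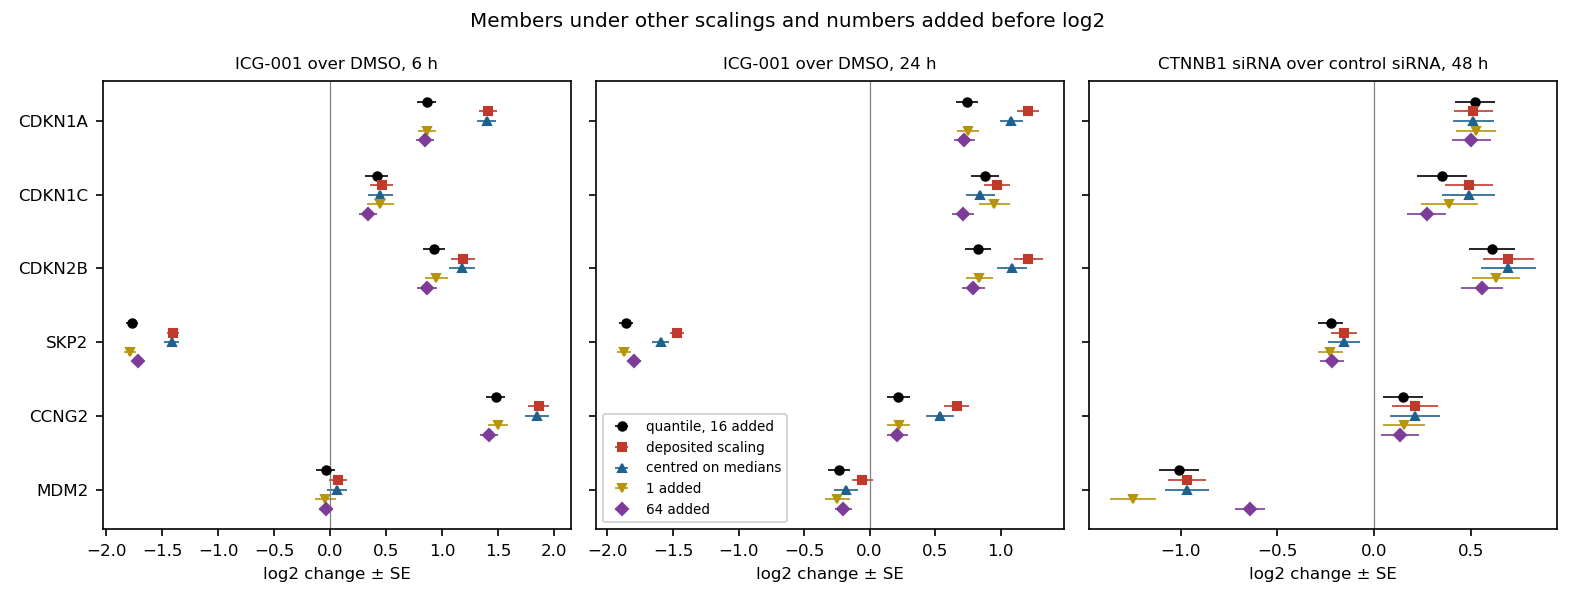
Log2 change with its SE (horizontal axis) of the 6 genes (rows) under 3 scalings and with 1, 16 or 64 added before log2, for ICG-001 over DMSO at 6 h and 24 h and for CTNNB1 siRNA over control siRNA. CCNG2 at 24 h runs from 0.21 to 0.67 and MDM2 under CTNNB1 siRNA from -1.25 to -0.64, while SKP2 stays below -1.40 at both times under ICG-001.

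The order of the group means on the deposited scale differed from gene to gene. CDKN1A was highest with ICG-001 at 6 h (4533 ± 148, SD, n = 3), then ICG-001 at 24 h (2658 ± 151), DMSO at 6 h (1695 ± 81.3), CTNNB1 siRNA (1416 ± 82.6, n = 2), DMSO at 24 h (1141 ± 67.6) and control siRNA (998 ± 199), of which the last 2 overlapped. CDKN1C ran from ICG-001 at 24 h (323 ± 17.6) through ICG-001 at 6 h (252 ± 26.0), DMSO at 6 h (178 ± 12.6), DMSO at 24 h (158 ± 23.5) and CTNNB1 siRNA (126 ± 3.07) to control siRNA (85.6 ± 1.86), and the 2 DMSO groups overlapped. CDKN2B ran from ICG-001 at 24 h (1784 ± 6.92) through ICG-001 at 6 h (1017 ± 31.7), DMSO at 24 h (762 ± 43.6), CTNNB1 siRNA (555 ± 58.7) and DMSO at 6 h (437 ± 19.3) to control siRNA (345 ± 112), and the last 2 overlapped. For all 3 inhibitor genes the top 2 places were held by the ICG-001 groups and the last place by control siRNA.

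SKP2 had the reverse order within the drug experiment. It was highest with DMSO at 24 h (2680 ± 99.6) and at 6 h (2553 ± 60.3), which overlapped, then came control siRNA (1649 ± 102) and CTNNB1 siRNA (1476 ± 5.20), and last ICG-001 at 24 h (959 ± 39.8) and 6 h (956 ± 24.4), which overlapped. CCNG2 ran from ICG-001 at 6 h (2299 ± 81.5) through ICG-001 at 24 h (1833 ± 47.7), DMSO at 24 h (1152 ± 86.9), DMSO at 6 h (621 ± 13.9) and CTNNB1 siRNA (404 ± 52.3) to control siRNA (351 ± 90.0), and the last 2 overlapped. MDM2 was 358 ± 25.2 with ICG-001 at 6 h and 339 ± 18.9 with DMSO at 6 h, which overlapped, then 309 ± 7.52 with DMSO at 24 h, 297 ± 3.31 with ICG-001 at 24 h, 64.5 ± 5.78 with control siRNA and 25.2 ± 2.10 with CTNNB1 siRNA. On the deposited scale MDM2 varied mostly between the experiments: its coefficient of variation, the SD over the mean, was 0.503 over all 16 arrays and 0.0880 over the 12 drug arrays. For SKP2 these were 0.435 and 0.487, so it varied as much within the drug experiment. The probe sets analysed had at least 0.400 over all 16 arrays. The MDM2 probe set, so even on the drug arrays, could be among them only through the siRNA arrays. The same held for the CDKN1C probe set, with 0.309 over the drug arrays and 0.415 over all 16. It also held for the CCNG2 probe set 228081_at (0.287 and 0.406). The dim MDM2 probe sets 211832_s_at (0.329 and 0.498) and 237891_at (0.387 and 0.400) were alike in this. Nothing is therefore read from the patterns of these probe sets.

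The genes whose normalized log2 values were most like each gene's over the 12 drug arrays were found by Pearson's r, as a description over arrays that share treatment groups. For CDKN1A they were SLC7A11, the cystine transporter subunit (r = 0.995), AJUBA (0.993) and RPS6KA5 (0.991). For CDKN2B they were the histone gene H2AC25 (0.989), JMY (0.988) and OTUD1 (0.987), and for CDKN1C they were SOCS2 (0.965), ZFAND2A (0.961) and CYP1A1 (0.951). SKP2 was nearest to BLOC1S1 (0.995), PLPP3 (0.989) and TRABD (0.988). CCNG2 was nearest to CHD2 (0.972), PNRC1 (0.968) and GCNT3 (0.959), and MDM2 to CAMSAP2 (0.938), TBC1D31 (0.938) and CNTLN (0.930). The highest r was lower for MDM2 than for the other 5 genes, but MDM2 varied little over these arrays. Its coefficient of variation there was 0.0880, against 0.309 to 0.539 for the brightest probe sets of the other 5. Nothing is therefore read from its lower r.

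Around the inhibitors, 7 of 10 measured genes of the G1/S step fell with ICG-001 at each time. Of 25 genes listed, the 10 measured were the cyclins CCND2 and CCNE2, the phosphatase CDC25A, the RB relative RBL1, and E2F1, E2F2, E2F3, E2F4, E2F8 and TFDP1 of the E2F family and its partners. Of these, 0 rose and 7 fell at 6 h, where 5.56% of all genes rose and 8.23% fell, and 0 rose and 7 fell at 24 h, where 9.22% rose and 11.3% fell. Their median log2 change was -0.41 at 6 h and -1.06 at 24 h, beside -0.02 over all genes. On the deposited scale 0 rose and 6 fell at 6 h, and 1 rose and 7 fell at 24 h. These lists were drawn up with earlier results of the arrays known. Their counts and adjusted p values under ICG-001 are therefore a description and no independent support. Only probe sets that varied were analysed, so the measured genes do not stand for the whole lists.

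CCNE2, cyclin E2, which activates CDK2, averaged 1233 ± 53.3 with ICG-001 at 6 h, against 2154 ± 49.0 with DMSO (SD, n = 3 each), and 345 ± 8.38 with ICG-001 at 24 h, against 1792 ± 25.3 with DMSO. Its changes were -1.17 ± 0.053 (adjusted p = 5.26e-12) and -2.72 ± 0.053 (adjusted p = 3.76e-17). On the deposited scale they were smaller, at -0.80 and -2.32, as they were after median centring, at -0.81 and -2.45. CDC25A, the phosphatase that activates CDK2, fell by 1.37 (adjusted p = 1.18e-09) at 6 h and fell by 2.13 (adjusted p = 1.48e-12) at 24 h on the log2 scale. The repressor E2F8 had changes of -1.02 (adjusted p = 6.26e-10) and -1.97 (adjusted p = 2.96e-14), and TFDP1, the E2F partner, fell by 1.66 at 24 h (adjusted p = 4.07e-13). RBL1, which encodes p107, fell by 0.55 (adjusted p = 3.72e-06) at 6 h, which was -0.21 (adjusted p = 0.0300) on the deposited scale and did not pass after median centring (-0.22, adjusted p = 0.0976) or with the median over its probe sets (-0.38, adjusted p = 0.294). E2F8 at 6 h was -0.66 on the deposited scale. CCNE2, CDC25A and E2F8 had larger falls at 24 h than at 6 h (adjusted p of the difference = 2.68e-10, 5.29e-04 and 1.08e-06).

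With CTNNB1 siRNA 0 of the 10 G1/S genes rose and 4 fell, where 6.19% of all genes rose and 5.83% fell, with a median change of -0.26 beside 0.01 over all genes. E2F8 changed by -0.34 (adjusted p = 0.00695), a call lost after median centring (-0.29, adjusted p = 0.0588), with the siRNA arrays alone (adjusted p = 0.0526) and without control siRNA replicate 2 (-0.26, adjusted p = 0.0712). E2F2 was dim, at 8.59 ± 4.57 with CTNNB1 siRNA, against 18.5 ± 0.841 with control siRNA, and its change of -0.76 (adjusted p = 0.0255) was lost on the deposited scale (-0.50, adjusted p = 0.176) and without CTNNB1 siRNA replicate 1 (-0.51, adjusted p = 0.211), control siRNA replicate 1 (adjusted p = 0.0921) or control siRNA replicate 2 (adjusted p = 0.0588). On the deposited scale 2 of the 10 fell and after median centring 0. In vehicle over time 0 rose and 3 fell, where 4.69% of all genes rose and 3.94% fell, among them TFDP1 by 0.56 (adjusted p = 5.69e-06) and RBL1 by 0.27 (adjusted p = 0.0119), the RBL1 call being lost without DMSO 6 h replicate 3 (adjusted p = 0.0577) or DMSO 24 h replicate 1 (adjusted p = 0.0741), after median centring (-0.22, adjusted p = 0.124) and with the median over its probe sets (-0.17, adjusted p = 0.476).

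Of 20 FOXO factors and targets other than CCNG2, 7 were measured. With ICG-001, 1 rose and 1 fell at 6 h, where 5.56% of all genes rose and 8.23% fell, and 1 rose and 2 fell at 24 h, where 9.22% rose and 11.3% fell. On the deposited scale 1 rose and 0 fell at 6 h, and 2 rose and 1 fell at 24 h. FOXO3, a FOXO factor, averaged 361 ± 39.8 with ICG-001 at 6 h, against 172 ± 10.4 with DMSO, a change of 0.98 (adjusted p = 8.25e-07), and changed by 0.76 (adjusted p = 1.36e-05) at 24 h. PDK4, a kinase that restrains pyruvate oxidation, had changes of -0.43 (adjusted p = 8.12e-06) and -0.45 (adjusted p = 2.53e-06), which on the deposited scale were -0.06 (adjusted p = 0.685) and 0.10 (adjusted p = 0.271), so that its direction at 24 h turned, and neither call held after median centring (adjusted p = 0.737 and 0.829). TNFSF10 (TRAIL) changed by -0.70 at 24 h (adjusted p = 0.0101), a call lost without ICG-001 24 h replicate 2 (adjusted p = 0.0642) or DMSO 24 h replicate 3 (adjusted p = 0.0738).

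In vehicle over time 2 of the 7 FOXO genes rose and 0 fell, where 4.69% of all genes rose and 3.94% fell. On the deposited scale, after median centring and with the replicate block, 3 rose and 0 fell. PDK4 averaged 2006 ± 81.7 in DMSO at 24 h, against 1058 ± 36.0 in DMSO at 6 h, a change of 0.89 (adjusted p = 2.34e-09). FBXO32 (atrogin 1) had a change of 0.79 (adjusted p = 0.00693), which was 0.49 (adjusted p = 0.233) with the median over its probe sets. With CTNNB1 siRNA 0 rose and 1 fell, where 6.19% of all genes rose and 5.83% fell. It was PDK4, which fell by 0.81 (adjusted p = 1.33e-07), a change that was -0.22 (adjusted p = 0.617) with the median over its probe sets.

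Of 21 TGF-β and SMAD genes 5 were measured, a pathway known to induce CDKN2B in epithelial cells. With ICG-001, 0 rose and 1 fell at each time, where 8.23% of all genes fell at 6 h and 11.3% at 24 h. It was the ligand gene TGFB2, which fell by 0.55 at 6 h (adjusted p = 3.22e-05) and by 0.43 at 24 h (adjusted p = 3.57e-04), the fall at 24 h not passing on the deposited scale (-0.18, adjusted p = 0.109). With CTNNB1 siRNA 1 rose and 0 fell, where 6.19% of all genes rose and 5.83% fell. TGFB2 averaged 58.9 ± 5.42, against 30.0 ± 5.35 with control siRNA, a change of 0.66 (adjusted p = 1.16e-04), which did not pass with the siRNA arrays alone (0.68, adjusted p = 0.109). In vehicle over time none of the 5 was called. Of 32 listed SCF and APC/C ubiquitin ligase genes other than SKP2, 1 was measured, BTRC, at group means of 4.62 to 11.5, and it was not called in any of the 4 comparisons. None of the 5 other listed CDK inhibitor genes was analysed here. For dim genes the size moved with the number added before log2: with 64 in place of 16 added, TNFSF10 at 24 h was -0.34, FBXO32 over time 0.43, and under CTNNB1 siRNA E2F2 was -0.33 and TGFB2 0.42.

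**Figure D4:**
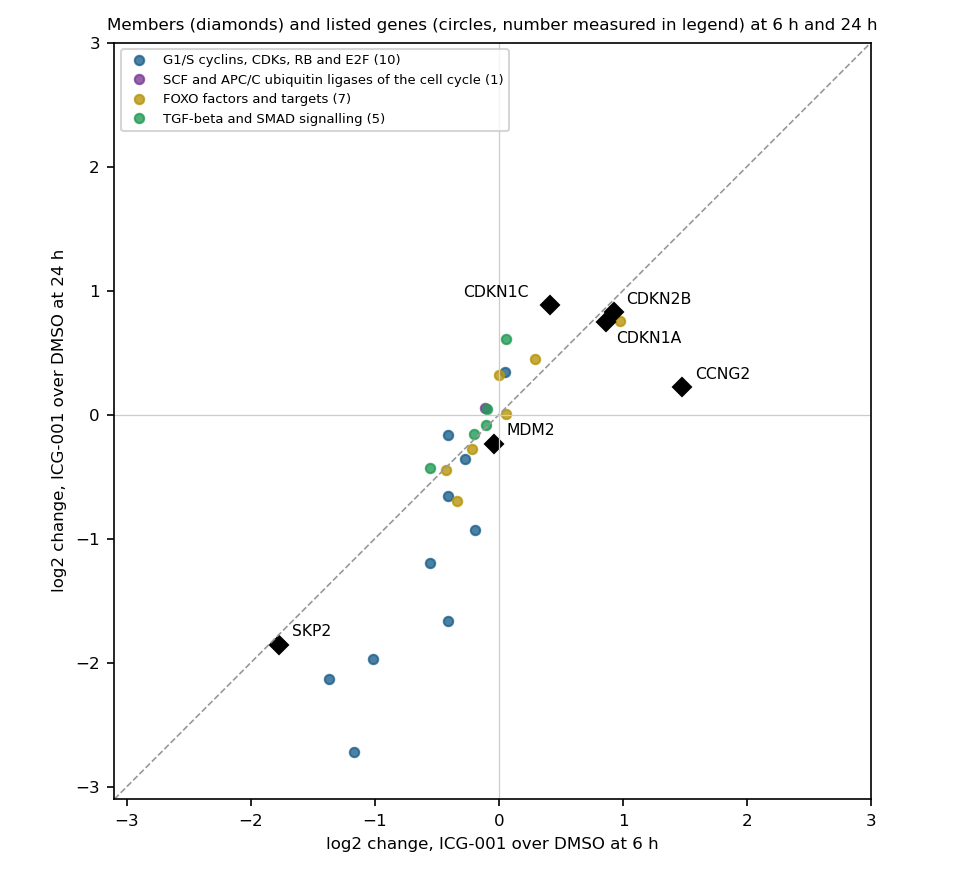
Log2 change of the 6 genes (diamonds) and of the listed pathway genes (circles) under ICG-001 over DMSO at 6 h (horizontal axis) and at 24 h (vertical axis), with a dashed line where both are equal. SKP2 lies near the line at -1.77 and -1.86, CCNG2 lies below it at 1.48 and 0.22, and the G1/S gene CCNE2 lies below it at -1.17 and -2.72.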

How the data were processed

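AsPC-1 RNA was measured on 16 arrays after biotin labelling with the usual Affymetrix method, per the labels. The values the authors deposited are intensity values, linear, 1 per probe set and array, and how probes were summarised and arrays scaled is not given in the sources used here. The lowest coefficient of variation among the 9554 probe sets was 0.400, so genes that varied little were not analysed here. GEO's platform annotation named 1 gene for 6442 probe sets, several for 252 and none for 2860; the 3112 without 1 gene were left out. From these deposited intensities the log2 of intensity plus 16 was computed, quantile normalized, and the probe set with the highest mean kept for each of 5250 genes. Array medians had differed by 0.64 on the log2 scale. limma 3.58.1 in R 4.3.3 was fitted with 1 term per group over all arrays, an intensity trend in the prior, 10 residual and 7.84 prior degrees of freedom, two-sided tests and Benjamini-Hochberg adjustment over all genes. The siRNA comparison, with 2 arrays per group, relies on the spread shared over all groups. All probe sets of the 6 genes came from the same fit over 6442 probe sets. The fit was tested on simulated data.

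The genes and lists were chosen with earlier results of these data known. A further list of genes is not reported here. Named from each list were up to 4 called genes with the largest change under ICG-001 at each time and up to 2 in the other comparisons, and for likeness the 3 genes with the highest r. The labels call the arrays biological replicates without saying whether they came from separate cultures, so p-values measure the spread between these arrays, which may be technical, and their number limits the precision. Other scalings, added numbers, array sets, filters, probe set summaries, a replicate block and leaving out each array were tried.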

Additional observations from a re-analysis of the deposited data

Results flagged for a closer look

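None of the 6 genes met a rule for a closer look. Their probe sets were checked for changes under ICG-001 of opposite sign at 6 h and 24 h, without overlap of the arrays, and none had them. The size of their change between times was not tested. Groups of 2 or 3 arrays are too small for the test of a single outlying array. Of the 23 measured pathway genes, 6 had a log2 change under ICG-001 over DMSO that was called at a time and differed between 24 h and 6 h in a test of that difference (limma, adjusted p under 0.05 over 5250 genes). All 6 are G1/S genes and had lower values at 24 h: the difference was -1.56 for CCNE2 (adjusted p = 2.68e-10), -1.25 for TFDP1 (4.76e-08), -0.96 for E2F8 (1.08e-06), -0.76 for CDC25A (5.29e-04), -0.74 for E2F1 (0.0220) and -0.64 for RBL1 (1.25e-04). The 24 h change is set against DMSO arrays of 24 h, in which CCNE2, TFDP1 and RBL1 fell relative to 6 h. The share of all genes that passed the test of the difference is not given here. The lists were also drawn up with earlier results of these arrays known, so nothing is read from this count.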

How the results depend on the processing

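Of 108 recomputed counts, 101 stayed within 1.5 times the reported count. With CTNNB1 siRNA, 4 of the 6 genes passed, and 2 did with the siRNA arrays alone or with the median over probe sets. Of the listed genes 6 passed there, 2 after median centring, 3 with the median over probe sets, 1 with the siRNA arrays alone, and 3 to 5 when 1 of these 4 arrays was left out, with 3 without control siRNA replicate 2. In vehicle over time 5 listed genes passed, and 3 with the median over probe sets. Of 324 recomputed changes of the 6 genes, 10 lost a call, 3 gained one, none turned a called direction, and 27 untested ones under ICG-001 moved by more than the spread between arrays, mostly with scaling. Over all genes, the calls under CTNNB1 siRNA were 325 higher and 306 lower, but 150 and 153 with the siRNA arrays alone and 232 and 182 after median centring. With ICG-001 the split moved with scaling: 292 higher and 432 lower at 6 h became 406 and 244 on the deposited scale and 370 and 222 after median centring, and 484 and 592 at 24 h became 738 and 385 on the deposited scale. Deviations from the group means correlated by -0.06 to 0.09 between same-numbered drug arrays and by -0.12 to 0.12 between other-numbered ones. With so few arrays per group, this cannot tell whether the replicate numbers paired the arrays in the experiment. With the replicate block, no call of the 6 genes changed, SKP2 under CTNNB1 siRNA having an adjusted p of 0.0269. In that fit 333 genes were higher and 323 lower under CTNNB1 siRNA. With the siRNA arrays alone fewer arrays enter the fit; for the other shifts the cause was not tested. Dim probe sets of MDM2 and CDKN2B, near or below the 16 added, limit what they can show.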
